A study of Drosophila melanogaster with 2 samples.

Results

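Some stretches of the Drosophila genome held many peaks of Araucan ChIP-seq close together, and these dense chains of peaks are described here. Peaks were selected on their position and signal alone, from the conservative list of reproducible peaks that the authors deposited. Summits (the position of highest signal within a peak) with a signal under 30 were dropped, neighbouring summits 5000 bp or less apart were joined, and every peak of a chain of 4 or more summits was kept. This gave 122 chains with 597 member peaks, 13.2% of the 4535 peaks on the assembled chromosome arms that had the minimum signal. The other 3938 peaks stood alone or in chains of up to 3 summits.

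The study profiled binding of Araucan in whole Drosophila melanogaster embryos. The flies carried a transgene, ara-eGFP, that makes Araucan fused to enhanced green fluorescent protein, and the embryos were collected over 0 to 24 h of development, so all tissues and stages were mixed. After sonication, an anti-GFP antibody was used to pull down the tagged protein with its DNA. There was 1 group with 2 biological replicates, and control libraries were not used here, so a contribution of open chromatin to the peaks cannot be told apart from binding. Read depth cannot be had from these files, which list signals and no counts, and no floor for an absent peak could be given.

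Araucan is a homeodomain transcription factor of the Iroquois family, which takes part in patterning sensory organs, wing veins, the eye and the body wall. Transcription factors often bind at several neighbouring sites in the introns and flanks of a developmental gene, where enhancers lie. They also give peaks at the promoters of housekeeping genes that stand close together, and a run of neighbouring peaks can come from either arrangement.

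The letters under the summits are shown first for 6 chains, namely the chain with the most summits, at the bantam microRNA gene, and chains at CHES-1-like, ph-p, Tlk, LPCAT and hll. They serve as examples of chains with many summits (bantam, CHES-1-like) or with a high single peak (the others). Each window takes in the summit and 50 bp on either side, read 5′ to 3′ on the plus strand of the dm6 sequence (RefSeq Release 6). Capitals mark 2 words reported for Iroquois homeodomains, TAACA on either strand and the palindrome ACANNTGT, and the 2 words can overlap.
bantam chain, highest summit (chr3L:634771-634871): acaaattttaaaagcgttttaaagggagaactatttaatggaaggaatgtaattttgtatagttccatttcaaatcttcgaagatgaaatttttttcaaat
bantam chain, lowest summit (chr3L:628402-628502): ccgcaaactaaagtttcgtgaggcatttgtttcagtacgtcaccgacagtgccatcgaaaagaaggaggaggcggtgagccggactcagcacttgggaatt
CHES-1-like, highest summit (chrX:7706946-7707046): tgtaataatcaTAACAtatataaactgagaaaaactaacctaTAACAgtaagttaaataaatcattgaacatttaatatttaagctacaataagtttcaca
ph-p, highest summit (chrX:2137305-2137405): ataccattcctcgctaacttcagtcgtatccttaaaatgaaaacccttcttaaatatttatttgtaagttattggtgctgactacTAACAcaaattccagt
Tlk, highest summit (chrX:3742177-3742277): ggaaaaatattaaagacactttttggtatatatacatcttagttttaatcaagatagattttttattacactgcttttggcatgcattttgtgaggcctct
LPCAT, highest summit (chrX:9579252-9579352): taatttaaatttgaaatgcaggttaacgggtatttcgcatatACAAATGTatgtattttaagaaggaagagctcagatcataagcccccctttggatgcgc
hll, highest summit (chr2L:14024025-14024125): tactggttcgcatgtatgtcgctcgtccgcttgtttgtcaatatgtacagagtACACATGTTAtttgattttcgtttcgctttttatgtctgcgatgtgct

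Neither word was a constant of these summits. Of 11 windows taken from such chains, not all of them shown, 4 held TAACA and 2 the palindrome. The highest window of the bantam chain and that of Tlk held no capitals, CHES-1-like held TAACA at 2 places, and ph-p held it at 1. The LPCAT window held the palindrome, and the hll window held the palindrome and TAACA overlapping. The lowest summit of the bantam chain also held neither word, and its GC share was 51.5%, against 24.8% at the highest summit of the same chain.

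Over all members, 133 of 597 windows (22.3%, exact 95% interval 19.0 to 25.8%) held TAACA. Over all 4535 peaks the share was 24.7%, and over the other 3938 peaks it was 25.1%. The direction was not the same everywhere, since TAACA was in 28.5% of member promoter windows and 25.3% of other promoter windows, but in 19.8% and 24.9% of the windows away from promoters. The palindrome was in 6.70% of member windows (4.83 to 9.01%) and in 4.42% of the others (3.80 to 5.11%). Away from promoters the palindrome shares were 6.82% and 4.75%. A control palindrome with other letters, ACTNNAGT, was also in a larger share of member windows (3.52%) than of the others (2.49%). TACAA, which has the letters of TAACA in another order, was in 28.1% of member windows and 27.9% of the others, more than TAACA in both. A GATA word (AGATAA or TGATAA) was in 12.7% of member windows, beside 14.4% of all peaks. The word TATCGATA of the promoter factor DREF was in 3 member windows (0.503%, 0.104 to 1.46%), beside 0.97% of all peaks. Peaks of a chain are neighbours and not independent, so these intervals cover counting error only and no test was made. The windows of a chain were not copies of each other, since the longest word that any 2 of them shared was 9 bases at the median and 13 at most.

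The chains were short and mostly of minimal size. Of the 122 chains, 66 had 4 summits, 29 had 5, 14 had 6, 7 had 7, and 6 had 8 to 11. The distance from first to last summit was 7546 bp at the median (2258 to 22746 bp), and the spacing between neighbours was 1811 bp at the median (199 to 4997 bp). In 28 pairs the summits lay 500 bp or less apart, which is within the 200 to 800 bp to which the labels say the chromatin was sheared. Arm 3L held 33 chains, 2L held 25, 2R and 3R held 23 each, X held 18 and chromosome 4 held none. Members made up 16.3% of the peaks of 3L and 9.67% of those of 3R, with the other 3 large arms between. At the limits of the rule, the lowest signal kept was 30.1 and the highest dropped was 27.4, while 99 neighbouring pairs of the list lay 4500 to 5000 bp apart and 95 lay just over 5000 and up to 5500 bp apart. Peaks in chains of 3, just short of the rule, had a median signal of 102.8 and 36.3% of their summits in promoters.

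The chain with the most summits lay over the host gene of the microRNA bantam, which promotes growth and blocks cell death. It ran from 621572 to 644317 on 3L with 11 summits, of which 7 lay within the noncoding gene lncRNA:CR43334 (628435 to 643900, plus strand). The microRNA hairpin, mir-ban, begins at 642208, and 9 of the 11 summits lay before it. The highest summit was 7387 bp before the hairpin and had a signal of 369.8, with 147.7 in replicate 1 and 220.2 in replicate 2. Its neighbour at 633754 reached 322 (132.6 and 187 in the replicates). The nearest summit past the hairpin, 527 bp from its start, had a signal of 85.6. At the start of the host gene, 2 summits at 627993 and 628452 had signals of 71.9 and 60.8 and were not listed in both replicates, whereas 8 of the 11 members were. A further chain of 4 summits lay upstream, from 611878 to 615581, with a highest signal of 163.9. The pair was one of 14 groups of chains 50 kb or less apart, which held 30 of the 122 chains.

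**Figure D1:**
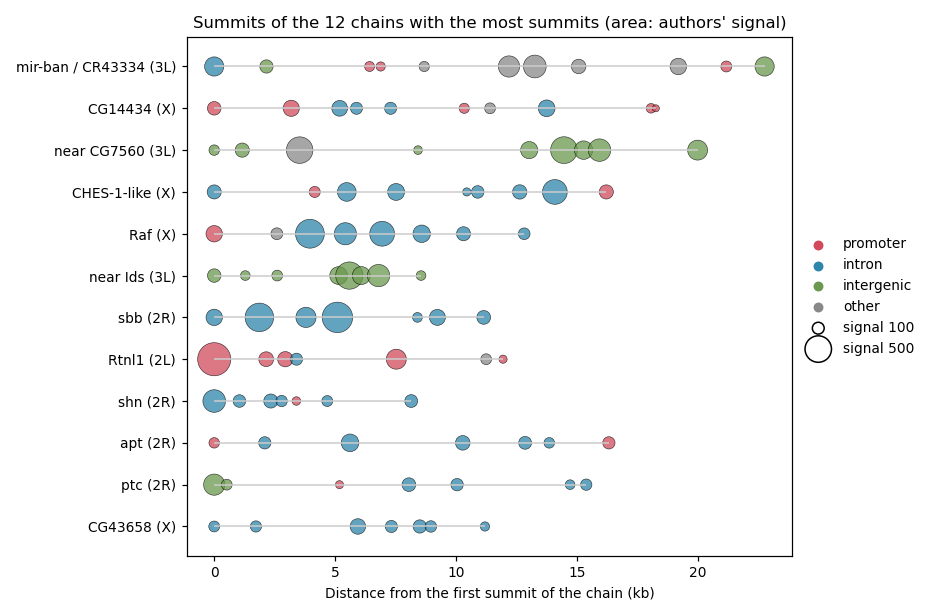
Summits of the 12 chains with the most summits, plotted by distance from the first summit of each chain (kb), 1 row per chain with its arm in brackets. Each circle is a summit, its area the authors' signal and its colour the annotation. The chains at sbb and CG43658 are intronic throughout, that at Ids is intergenic throughout, that at CG7560 is intergenic but for 1 summit in a noncoding transcript, and the bantam chain is the longest with 11 summits.

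Several of the chains with the most summits lay largely or wholly within single genes. CHES-1-like on X, which encodes a forkhead transcription factor, held 9 summits of 1 chain (7692918 to 7709121), 7 of them in introns. Their signals ran from 48.1 to 437.4, and the highest had 163.1 in replicate 1 and 285.2 in replicate 2. Raf on X, the kinase between Ras and MEK, held 7 of the 8 summits of its chain (2293750 to 2306560), and the remaining one lay in the promoter of CG2865. All 8 Raf members were listed in both replicates. The intronic Raf summit at 2239 bp past the start had a signal of 593.3, that at 5223 bp 440.1, and the last, at 11094 bp, 97.3.

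On 2R, sbb (also called brakeless, a transcriptional corepressor) held 7 intronic summits with signals from 68.2 to 663.6, and 6 of the 7 were listed in both replicates. The 7 summits of shn, which encodes the zinc finger partner of Mad in Dpp signalling, lay within the gene. The highest of these was 365.6 (152.2 and 215.9 in the replicates), and the lowest, 52.0, was the only one in a promoter. At ptc, the Hedgehog receptor gene, 4 of the 7 summits lay in the gene and 2 were intergenic and upstream, among them the highest, 320.6. The promoter summit of ptc, just before the gene, was the lowest at 46.4. The gene apt, which encodes a DNA-binding regulator, held 6 of the 7 summits of a chain whose signals ran from 78.5 to 222.1. CG43658 on X held 7 intronic summits of 61.5 to 172.2. Rtnl1 on 2L, a reticulon of the endoplasmic reticulum, differed from these in that 5 of its 7 summits were promoter summits of its alternative starts. The highest of them reached 783.9 (321.7 in replicate 1, 452 in replicate 2), and the other 6 members lay at 47.8 to 284.8.

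Of the 6 chains with 8 or more summits, 3 more were not confined to 1 gene. At CG14434 on X, 10 summits (6849601 to 6867852) took in promoters of 4 coding genes, CG14434, CG43736, CG4558 and the chitinase gene Cht11. None of its signals passed 200.2. On 3L, 9 summits between CG44362 and CG7560 (11402518 to 11422494) had no promoter among them, and 8 were intergenic. The highest were 512.1 (191.3 and 324.8 in the replicates) and 503.5 (200.1 and 311.3), more than 10 kb apart. Also on 3L, 8 intergenic summits (3389483 to 3398030) had Ids, a lysosomal sulfatase gene, as their nearest coding gene, 11215 to 19762 bp away. Their highest signal was 532.1 (230.1 and 374.1 in the replicates).

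The 12 chains with the highest single peaks were picked on that peak, so its height above its neighbours partly follows from the pick. Most had 4 or 5 summits, as had most of the 122 chains. The highest peak was 12.5 times the median of its chain at ph-p, but 2.12 times at CG4004 and 2.07 times at Shc. At ph-p on X, a Polycomb group gene, the highest peak of all members reached 1832 (821.3 in replicate 1, 1014 in replicate 2). Its neighbour, also a ph-p promoter summit, reached 667.5, and the remaining 3 were 76.9 to 146.9. At px on 2R, a gene of wing vein patterning, a promoter peak of 1823 (695.7 and 1134) stood beside 3 intronic peaks that did not pass 171.2. Tlk on X, which encodes the Tousled-like kinase of chromatin assembly, held an intronic peak of 1147 (420.8 and 731) and 4 more intronic summits of 49.1 to 161.2. In each of these 3 chains the single highest peak was above every other member with a replicate value in both replicates. The chains were picked on a signal from the same replicates, so this is a description and no separate support.

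At CG3552 on 3L the highest peak, 1036, lay in the promoters of CG3552 and CG3437. The other 3, with signals of 99.5 to 115.8, had CG44838 as their nearest coding gene. Of these, 1 also lay in the promoter of CG3434. The chain nearest hll on 2L (14021039 to 14025037) reached 957.8 at a promoter that belongs to no coding gene. At LPCAT, a phospholipid acyltransferase gene on X, the highest peak was intronic at 937.1, and the chain ran on to a promoter summit of the hexokinase gene Hex-A (194.9). Trl on 3L, the gene of GAGA factor, held 4 summits that were all listed in both replicates, the highest an intronic one of 810.5. The remaining chains of the 12 highest were at CG4004 on X (742.7), CG43131 on 3R (704.3), Shc on 3L (680.4, the adaptor of receptor tyrosine kinases), and at Rtnl1 and sbb described above. In the chain near CG43131 all 5 summits were intergenic, and the other 4 reached at most 196.6 and were not listed in both replicates.

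Across the 122 chains the highest member had a signal of 236.3 at the median (70.6 to 1832), which was 2.04 times the median of its own chain. It was a promoter summit in 35 chains (28.7%) and the first or last summit of the chain in 52 (42.6%). A summit placed without regard to order would lie at an end in 43.1% of chains of these sizes.

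The chains fell into 3 kinds by what they lay on. Promoter summits of at least 3 coding genes were found in 18 chains. Of the rest, 55 had at least 75% of their summits in the body of 1 coding gene, and 49 were neither. The genes that held the 55 chains were 38561 bp long at the median, beside 2166 bp for all coding genes. Length partly follows from this sorting, since a gene must have room for most of a chain. Of all chains, 42 lay wholly in 1 coding gene, 28 had no summit in a coding gene, 37 had no promoter summit and 11 were intergenic throughout. Of the 49 chains of neither kind, in 30 the intergenic summits were 50% or more. Median signal was close in the 3 kinds, at 104.2 within 1 gene, 99.2 at several promoters and 106.7 in the rest.

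Of the 18 chains at several promoters, the one with the most genes, on 3R (9400092 to 9404265), had 4 summits in promoters of 6 coding genes, among them RpL34b, a protein of the large ribosomal subunit, whose promoter, near that of CG8132, held the highest (280.3, with 124 and 156.1 in the replicates). A chain of 7 on 2R had promoter summits of SmD3 (a spliceosome core protein), Oda (ornithine decarboxylase antizyme), CCT5 (a chaperonin subunit) and EndoG (a mitochondrial nuclease), and none of its signals passed 142.8. A chain on 3R at larp, Gfat2 and Moca-cyp had all 4 summits in promoters and none above 111.5. These 3 examples were chosen after their values were seen.

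Promoter summits were a smaller share of the members than of the other peaks, and intergenic summits a larger one. No test was made of these shares, since neighbouring peaks are not independent. A summit was called a promoter summit within 500 bp of any annotated transcription start site, coding or not. This held for 172 of 597 members (28.8%, exact 95% interval 25.2 to 32.6%), beside 40% of all peaks, 41.7% of the other peaks (40.2 to 43.3%) and 36.3% in chains of 3. Introns held 254 members (42.5%, 38.5 to 46.6%), beside 37.8% of all peaks and 37.0% of the others. Intergenic summits were 21.8% of members (18.5 to 25.3%) and 16.2% of the others (15.1 to 17.4%). Exons of noncoding transcripts held 18 members (3.02%) and 0.686% of the others, and 5 of the 18 were those of the bantam host gene. Starts of coding genes on both strands lay within 500 bp of 4.36% of member summits and 12.2% of the others. The direction of the promoter difference was the same under all 13 other settings, including each replicate's own list. These settings chain overlapping lists by the same kind of rule and are not independent. Whether the rule itself lowers the promoter share was not tested.

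**Figure D2:**
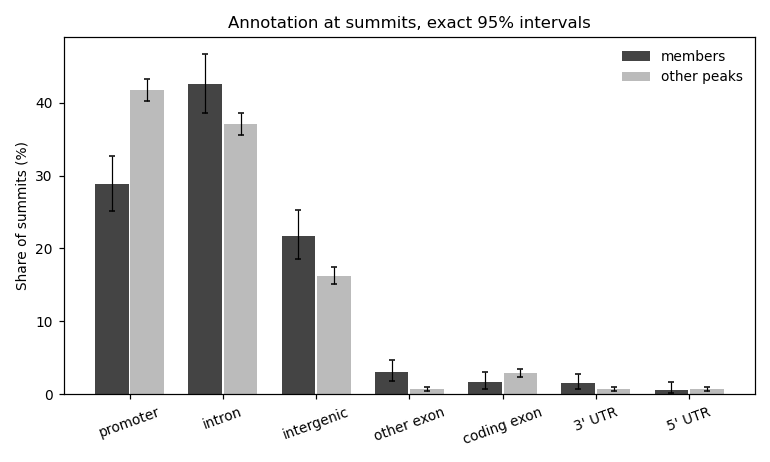
Share of summits (%) in each annotation for the 597 members (dark) and the 3938 other peaks (light), with exact 95% intervals as bars. Promoter summits are 28.8% of members and 41.7% of other peaks, and intergenic summits are 21.8% and 16.2%.

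The gap at promoters was widest among the strongest peaks. Among the 25% of peaks with the highest signal (above 160.7), 46 of 169 members (27.2%, 20.7 to 34.6%) were promoter summits, beside 489 of 965 others (50.7%, 47.5 to 53.9%). Among the 25% with the lowest signal the shares were 32.2% and 35.7%. Signal itself was 104.1 at the median of members and 98.5 at that of the others, a ratio of 1.06, and it had been used in choosing the members. Intronic members had a median of 112.3 (98.3 for other intronic peaks) and intergenic members 116.4 (94.7), whereas promoter members had 98.7 (105.8). The median distance to the nearest coding start was 2420 bp for members and 1069 bp for the others. Summits over 10 kb from any coding start were as frequent in both, at 13.6% and 13.4%.

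GC content fell as signal rose, in the chains and outside them. The member windows had a median GC share of 34.7%, and so had the other windows. In 4 equal classes of signal from lowest to highest, the medians of members were 46.5, 36.6, 32.7 and 29.7%, and those of the other peaks 45.5, 36.6, 32.7 and 29.7%. Spearman's rho of signal and GC share was -0.52 over 597 members and -0.44 over 3938 others, a description of peaks that share 2 libraries. The same was seen within chains. The highest peak of a chain had a median of 30.7% and the lowest 43.6%, and the highest was the less GC-rich in 93 of 122 chains. In chains of 6 or more summits rho was negative in 25 of 27. Whether GC-dependent recovery of fragments takes part in this was not tested.

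**Figure D3:**
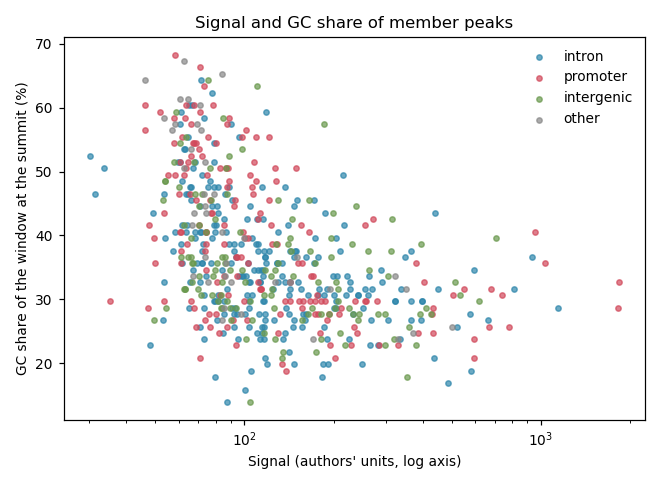
Signal of the 597 member peaks (authors' units, log axis) against the GC share of the window at the summit (%), coloured by annotation. Windows above 50% GC lie almost all at low signal, and the 4 classes of signal have medians of 46.5, 36.6, 32.7 and 29.7%.

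The replicates' own lists differed in length, and most of replicate 1's members were in both. Of 597 members, 299 (50.1%, 46.0 to 54.2%) overlapped a peak of both replicates' own thresholded lists, beside 45.6% of all peaks and 45.0% of the others (43.4 to 46.5%). Replicate 1's shorter list held 318 members (53.3%), of which 299 were also in replicate 2's, and replicate 2's list held 75.2%. Neither list held 129 members (21.6%), beside 24.8% of the others. Listing followed signal, at 2.80% of members in both lists in the lowest of the 4 classes and 97.6% in the highest. The highest peak was listed in both replicates in 111 of 122 chains and the lowest in 10. In 118 chains at least 1 member was in both lists, in 20 chains at least 4 were, and in 4 chains all were. Of the 4 chains with none, the longest was that at Pdp1, with 6 summits of up to 114.6, a name chosen after its values were seen.

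Members could be matched to a peak in the ranked lists of both replicates in 579 cases, within 150 bp of the summit. Spearman's rho between the replicates' signals was 0.75 for members and 0.75 for the others, again a description of peaks from shared libraries. Replicate 2 had the higher value in 78.8% of matched members, with a median ratio of 1.33, beside 1.31 for the others. The ratio was 1.24 at promoter members, 1.36 at intronic and 1.46 at intergenic members. The same ratios among other peaks were all close to 1.32. Chaining each replicate's own list by the same rule gave 23 chains in replicate 1 and 92 in replicate 2. Of the 122 chains, 23 (18.9%) overlapped a chain of replicate 1 and 66 (54.1%) a chain of replicate 2, while 22 of the 23 and 67 of the 92 overlapped one of the 122.

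**Figure D4:**
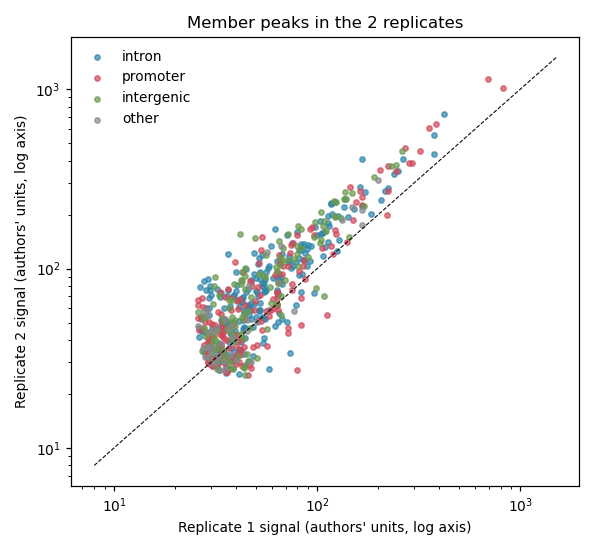
Signal of the 579 matched member peaks in replicate 1 and replicate 2 (authors' units, both axes log), coloured by annotation, with the line of equal values dashed. Most points, 78.8%, lie above the line, and the spread is widest at low signal.

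A gene was counted with a chain when its start was the nearest coding start to a member, its body held one, or its start lay within the chain. By this count 231 of 13945 coding genes (1.66%) belonged to a chain. A long gene has more room for summits, so that gene length is given beside the lists. Of coding genes under 5 kb 1.21% belonged to a chain, of those of 5 to 20 kb 2.31%, and of longer ones 4.64%. The gene lists of signalling, patterning and cell shape held 277 coding genes in all, and 26 of them (9.39%) belonged to a chain, with shares of 5.26%, 10.9% and 12.2% in the same classes of length. The lists had been chosen with earlier results of these data known. They are selections, so a gene of a pathway can be in a chain without being on its list, and each count depends on that choice.

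The shares of all coding genes, 1.66% at all lengths and 4.64% over 20 kb, stand beside each list here and below, and no list was tested. Of 22 genes of the Dpp pathway 4 belonged to a chain. Beside shn these were Dad (an inhibitory Smad, 6 summits of up to 186.1), sog (an extracellular antagonist, 4 intronic summits of up to 190.4) and ush (a zinc finger cofactor of GATA factors). The gene ush was in 2 chains, of 6 and 4 summits, with highest signals of 262 and 215.5. Of 19 Notch pathway genes 3 belonged to a chain, all in the same one on 3R. It joined gro, the Groucho corepressor, with a promoter summit of 505.3 (224.2 and 271.4 in the replicates), to E(spl)m7-HLH, a basic helix-loop-helix repressor (201.9). Its relative E(spl)m8-HLH lay within the span without a summit of its own. Of 20 EGFR and FGF genes the 2 met were aos, an extracellular inhibitor of the receptor, and Krn, a ligand (205.6). The 4 summits nearest to aos reached 578.7. Of these, 2 lay in the body of aos, while all 4 lay within the gene CG33158. Raf and Shc, in chains described above, were not on this list. The Wnt list gave 1 of 20, the co-receptor gene arr, with 6 summits of at most 117.9. The Hedgehog list gave ptc alone of 12, and the JAK/STAT list gave 1 of 9, the feedback inhibitor gene Socs36E (428.3).

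Among the other regulators, 2 of 16 Polycomb and trithorax genes (ph-p and Trl) and 2 of 12 hemocyte and gut genes belonged to a chain, the latter ush and Pvf3, a ligand gene of the Pvr receptor (156.2). The ecdysone list gave 1 of 15, the nuclear receptor gene Eip75B (250.8). The muscle and heart list gave 1 of 20, the LIM homeodomain gene tup, whose 4 summits lay outside the gene (181.3). The segmentation list gave 1 of 17, the pair-rule gene odd, with 4 intergenic summits of up to 145.3, and the growth list gave bantam, 1 of 17. None of 8 Hox genes, 22 neuroblast and nervous system genes or 11 proneural genes belonged to a chain, beside 1.66% of all coding genes. Lists this short can hold none at that share, so no lack of chains is shown. Of the 3 Iroquois genes ara alone did, with 4 intronic summits of 64.4 to 121.1, beside a median of 236.3 for the highest peak of a chain.

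Of 18 genes of adhesion and the cytoskeleton 4 belonged to a chain. These were Act5C, a cytoplasmic actin gene nearest to a peak of 402.5, Moe (moesin, 396.5), mbc (an activator of Rac needed for myoblast fusion, 306.1) and the polarity gene scrib (85.3). The epithelial list gave 1 of 14, the apical determinant gene crb (219.9). The axon guidance receptors gave 2 of 14, the netrin receptor gene fra (335.4) and the Slit receptor gene robo2 (122.8). Of 93 cytosolic ribosomal protein genes 5 belonged to a chain (5.38%), namely RpL34b (280.3), RpL32 (256.0), RpL19 (127.1), RpS23 (123.1) and RpL8 (106.7). Of 73 mitochondrial ones only mRpL34 did, because its start lay within a chain. It was not the nearest coding gene to any member, but 1 summit lay in its promoter. Of 115 histone genes and 19 heat shock genes none did, beside 1.66% of all coding genes. A lack of chains at these genes was not tested. Of 260 microRNA genes 5 lay within a chain (1.92%), mir-ban, mir-281-1, mir-281-2, mir-308 and mir-375, with no summit inside any of the 5.

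The group with the most chains, 4 that followed each other at 50 kb or less, lay on 3L between the chains at scyl and chrb, a pair of related genes that hold back TOR signalling. From the first summit of the chain at scyl to the last summit of that at chrb (11252394 to 11492823, 240.4 kb), 6 chains held 32 members, and 44 peaks lay there in all. This was 18.3 peaks per 100 kb, beside 3.64 over the whole arm. The chain of 9 summits between CG44362 and CG7560 was one of the 6 and held the highest signal of the interval, 512.1. The 44 peaks had a median signal of 92.2, beside 99.2 for all peaks. The interval was chosen after its values were seen and its ends are ends of chains, so its density follows from the rule and is a description alone.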

How the data were processed

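The values used are the authors' signal of each peak, in the lists they deposited for 2 biological replicates. Per the deposited descriptions, these are peaks ranked or thresholded by the irreproducible discovery rate on dm6. The aligner, the caller and the scaling of signal were not given in the sources used here. The series-wide conservative list gave the chains, each replicate's thresholded list gave listing (overlap of at least 1 bp), and the ranked lists gave replicate signals (mutually nearest summits within 150 bp).

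Annotation came from Ensembl release 115 (BDGP 6.54, the dm6 sequence), without transposable elements. Promoters took precedence over UTRs, these over exons, and exons over introns. Intervals are exact (Clopper-Pearson, 95%). The members, the lists and the motifs were chosen with earlier results of these data known, so no test was made. Named are the genes of the 12 chains with the most summits, those of the 12 with the highest peak, and list genes in a chain. Where a chain had many genes, the host or nearest gene stands for it. Replicates are described as separate biological samples. Chaining was tested on simulated summits, and the search for TAACA on a few short written sequences. Software was Python 3.11.15 with scipy 1.17.1, pandas 2.3.3, numpy 2.4.6 and, for plots, matplotlib 3.10.9.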

Additional observations from a re-analysis of the deposited data

How the results depend on the processing

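With 1 group there was nothing to pair. The number and share of members are set by the rule. Chaining at 2500 bp gave 41 chains, 181 members and 3.99% of peaks, with 61.3% listed in both replicates and a signal ratio of 1.25. Of these chains, 14.6% had promoter summits of 2 or more coding genes. Under the main rule this share, not given above, was 25.4%. At 10000 bp there were 276 chains, 1502 members and 33.1% of peaks, with 32.9% promoter summits. Promoter summits of 2 or more coding genes were then in 40.2% of chains. At least 3 summits gave 315 chains, 1176 members and 25.9%, and at least 5 gave 56, 333 and 7.34%. Without a minimum signal 15.02% of peaks were members. With signals of the list median or more there were 24 chains, 110 members and 4.67%, with 85.5% listed in both and a ratio of 1.18. The other thresholded list gave 16.3% members and 43.9% listed in both. Promoter summits were 19.8% within 250 bp and 42.9% within 1000 bp of a start. Leaving out 1 replicate gave 23 to 92 chains, 109 to 436 members, 4.66 to 11.0% of peaks, 23.6 to 25.7% promoter summits and a ratio of 1.08 to 1.17. The lower values of chains, members and share, and the ratio of 1.17, came from replicate 1's list alone. In all, 48 of these values stayed within the reported counting error, replicate spread or 1.5 times the count, and 33 did not. Of 36 further values for GC and motif shares, 18 stayed and 18 did not. Windows with 100 bp on either side of the summit held TAACA in 37.2% and the palindrome in 12.7% of members (22.3% and 6.70% as reported), as longer windows hold more of any word. The median GC share ran from 31.2 to 36.8%. Under every setting promoter summits were a smaller share of members than of other peaks, but the settings are not independent. Unknown depth limits what can be said of members near the minimum signal.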
